A study of Mus musculus with 12 samples.

Results

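The 40 genes described here take part in chromosome segregation and in the copying of DNA, and were read in mouse tumours driven by the EWSR1-ATF1 fusion of clear cell sarcoma. They were chosen by name, from a list of gene symbols, and matched to the Ensembl identifiers of the count table, where all 40 were found among 55536 genes. Of these, 24 act in mitosis or in the entry into it, 11 in the licensing of replication origins or at the replication fork, 3 in the supply of nucleotides, and 2 are the E-type cyclins. For short, the 11 are also called licensing genes below, although the GINS genes and Pcna act after licensing. The translocation tumours (n = 5, genotype HprtCre; Ewsr1-loxP; Atf1-loxP) came from mice that carry Cre in the Hprt locus, which is active in most cell types, and loxP sites in Ewsr1 and in Atf1. The Rosa26 tumours (n = 6, genotype Rosa26-LSL-EWSR1-ATF1) came from mice in which the fusion gene sits in the Rosa26 locus behind a stop cassette that Cre removes, and their genotype label names no source of Cre. Wild-type skeletal muscle was represented by 1 library. No group received a drug, all tumours were frozen at morbidity from the primary tumour, and the labels give neither ages nor which samples share an animal. The titles of translocation tumours 2 and 5 share a stem, those of Rosa26 tumours 5 and 6 differ in the last digit, and the titles of the muscle and of translocation tumour 1 begin with 1 number.

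A cell that is about to divide loads the MCM2-7 helicase onto its origins in G1 with the help of CDC6 and CDT1, and this step is called licensing. Cyclin E with its kinase then starts S phase, the GINS subunits complete the active helicase, PCNA clamps the polymerases to DNA, and ribonucleotide reductase and thymidylate synthase supply the nucleotides. Mitotic genes are transcribed later, in G2 and M, by complexes that read a short promoter element called CHR together with CCAAT boxes bound by NF-Y, whereas many replication genes carry sites for E2F factors. Most adult muscle fibres have left the cell cycle.

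Promoters were read because the members moved together in 1 library, and the 4 shown are of a kinase and a cyclin of mitosis and of a pair of helicase subunits. RefSeq promoters on GRCm38.p6 were at hand for 30 of the 40 members. The 10 without a row were Aurkb, Ccna2, Ccne2, Cdc25c, Foxm1, Gins1, Gins2, Kif20a, Mcm4 and Tpx2. Each sequence covers the 250 bases before the start annotated by RefSeq, 5′ to 3′ on the gene's own strand. The windows are chr10:69352913-69353162 (minus strand) for Cdk1, chr13:100786487-100786736 (minus) for Ccnb1, chr1:128359706-128359955 (minus) for Mcm6 and chr8:75109259-75109508 (plus) for Mcm5. By the GENCODE positions given below, the windows of Cdk1 and Ccnb1 reach into the genes themselves. Capitals mark TTTGAA (the CHR core), CCAAT and the E2F-like TTTNNCGC, each on either strand, so that ATTGG is a CCAAT box on the other strand. Where TTTNNCGC matched on both strands of 1 stretch, the matches share letters and were printed as 1 run of capitals.
Cdk1: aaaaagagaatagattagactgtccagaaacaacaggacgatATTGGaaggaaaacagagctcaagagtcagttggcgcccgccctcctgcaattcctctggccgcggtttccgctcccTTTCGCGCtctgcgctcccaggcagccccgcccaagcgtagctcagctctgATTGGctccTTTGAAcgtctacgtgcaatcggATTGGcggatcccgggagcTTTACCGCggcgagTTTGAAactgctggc
Ccnb1: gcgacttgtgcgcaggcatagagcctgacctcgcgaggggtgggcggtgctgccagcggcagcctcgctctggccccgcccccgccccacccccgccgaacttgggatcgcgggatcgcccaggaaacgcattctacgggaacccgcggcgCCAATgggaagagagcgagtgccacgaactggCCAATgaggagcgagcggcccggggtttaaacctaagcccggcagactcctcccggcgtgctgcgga
Mcm6: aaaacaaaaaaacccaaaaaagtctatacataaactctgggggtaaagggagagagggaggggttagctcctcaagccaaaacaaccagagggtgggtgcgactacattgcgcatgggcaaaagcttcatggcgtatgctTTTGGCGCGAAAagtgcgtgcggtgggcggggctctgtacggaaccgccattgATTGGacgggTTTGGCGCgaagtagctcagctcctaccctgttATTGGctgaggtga
Mcm5: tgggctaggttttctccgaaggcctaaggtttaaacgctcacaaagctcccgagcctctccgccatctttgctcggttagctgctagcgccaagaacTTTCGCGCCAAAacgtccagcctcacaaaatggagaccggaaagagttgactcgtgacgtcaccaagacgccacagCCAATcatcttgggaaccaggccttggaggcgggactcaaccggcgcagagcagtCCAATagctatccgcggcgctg
In Cdk1 the TTTGAA matches lay 71 to 66 and 15 to 10 bases before the start, with CCAAT boxes at 208 to 204, 80 to 76 and 48 to 44 bases and TTTNNCGC at 131 to 124 and 29 to 22 bases. Ccnb1 held CCAAT boxes at 99 to 95 and 67 to 63 bases and no TTTGAA in this window. No other form of the CHR was searched for, so its absence from Ccnb1 is not shown. Each gene was counted once, as a match if any of its promoters matched. CCAAT was found in 16 of 18 mitosis promoters (88.9%) and 6 of 8 licensing promoters (75.0%), against 37.5% of all 27025 genes with a promoter at hand. TTTGAA was found in 7 of 18 mitosis promoters (38.9%) and 1 of 8 licensing promoters (12.5%), against 18.3% of all. TTTNNCGC was found in 1 of 18 mitosis promoters (5.56%), that of Cdk1, and in 4 of 8 licensing promoters, against 4.94% of all. Of the 48 further mitosis genes and 40 further replication genes described below, 43 and 34 had promoters at hand. TTTNNCGC was found in 8 of these 43 (18.6%) and 6 of these 34 (17.6%), so its split was not seen there. TTTGAA was found in 14 of the 43 and 5 of the 34, and CCAAT in 27 and 17. These are matches of letters, and binding was not measured.

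The translocation libraries held 2.96 to 21.25 M counts each, the Rosa26 libraries 6.82 to 21.49 M and the muscle library 25.04 M. The 3 genes Gm23935, Gm26917 and Gm42418, known to contain rRNA sequence, held 37.8% of the counts in translocation tumour 2 (95% Wilson interval 37.73% to 37.84%) and 30% in Rosa26 tumour 4 (29.96% to 30.03%), against 1.34% to 7.38% in the other tumours. The 40 genes together had 1348 counts in translocation tumour 2, the shallowest library, and 114024 in translocation tumour 5. Levels are given as CPM, counts per M after TMM scaling over all 12 libraries, and levels of different genes are compared only as CPM per kb of exon. The 10 skeletal muscle markers summed to 250150 CPM in muscle, and also to 3170 CPM in translocation tumour 2 and 32062 CPM in Rosa26 tumour 1. Of the 8 melanocyte markers, Mlana had no count in any tumour, where 3 counts would be 0.14 CPM in translocation tumour 5, and Tyr and Tyrp1 did not pass 0.438 CPM.

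A single tumour set the pattern of the whole group of genes. Translocation tumour 5 had the highest level of the 11 tumours for 40 of the 40 genes, against 27.8% of the 17021 genes tested. It stood at least 2 times above the next tumour for 35 of the 40, against 11.1% of all genes. Over the median of the other 10 tumours its level was 3.48 to 29.4 times higher, with a median of 7.82 for the 40 genes and of 0.881 for all genes. The summed level of the 40 genes was 5302 CPM in translocation tumour 5, 425, 590, 857 and 672 CPM in translocation tumours 1 to 4, and 558 to 1013 CPM in the Rosa26 tumours, and it was 214 CPM in muscle.

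**Figure D1:**
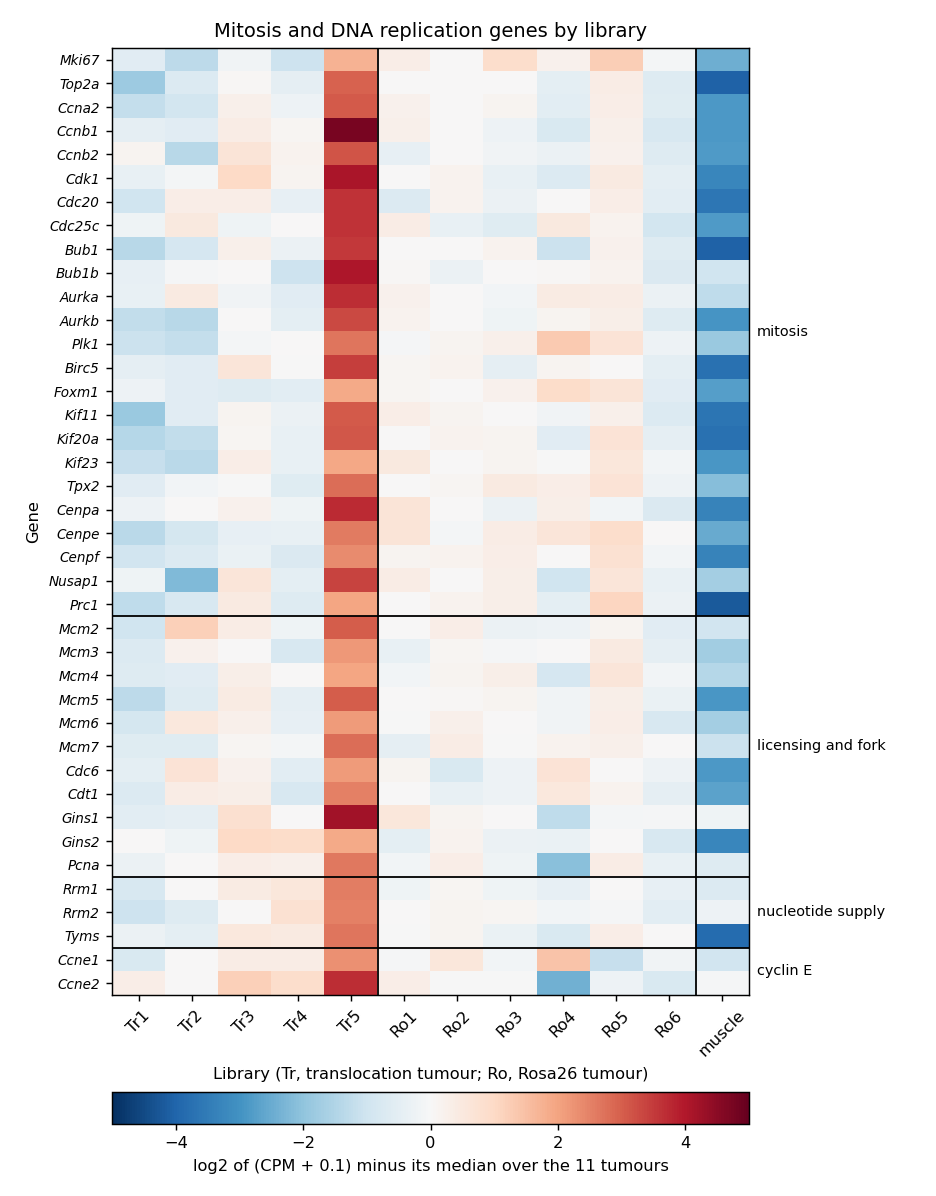
Level of each of the 40 genes in each library, as log2 of CPM plus 0.1 minus the gene's median over the 11 tumours, with the translocation tumours (Tr), the Rosa26 tumours (Ro) and the muscle library in columns and the 4 groups of genes in rows. Translocation tumour 5 is the darkest red column for all 40 genes, and muscle is blue for most mitosis genes and for Tyms, and paler for Rrm1, Rrm2 and the cyclin E genes.

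The summed levels of fibroblast, macrophage, lymphocyte and melanocyte markers in this tumour also lay outside the range of the other tumours. The 8 fibroblast markers summed to 252 CPM in translocation tumour 5, 1948 to 22286 CPM in translocation tumours 1 to 4 and 5508 to 98499 CPM in the Rosa26 tumours, and 5 of the 8 were lowest in it. The 10 macrophage markers summed to 655 CPM in it, 1179 to 3046 CPM in translocation tumours 1 to 4 and 876 to 2467 CPM in the Rosa26 tumours. These markers were split, with 5 of the 10 lowest in it and 1, Cd14, highest in it at 48.3 CPM. The 8 melanocyte markers summed to 464 CPM in it, 9.99 to 40.3 CPM in translocation tumours 1 to 4 and 17.1 to 55.8 CPM in the Rosa26 tumours. Dct, at 300 CPM, and Mitf, at 163 CPM, made up nearly all of that sum. The 10 T and NK cell markers summed to 4.74 CPM in it and the 8 B and plasma cell markers to 3.07 CPM, against at least 8.32 and 5.6 CPM in the other tumours. Its depth of 21.25 M and its ribosomal share of 3.71% (3.701% to 3.717%) lay within the range of the other tumours. The part of these differences in the levels of the 40 genes was not tested. In bulk RNA, a larger share of dividing cells and more RNA per dividing cell cannot be told apart.

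Among the mitosis genes, Ccnb1, the B-type cyclin that switches on CDK1 at the G2 to M transition (ENSMUSG00000041431, mm10 chr13:100778650-100786570), showed the widest gap. It had 5.18, 4.82, 9.09, 7.57 and 191 CPM in translocation tumours 1 to 5, against 4.03 to 8.55 CPM, median 6.49, in the Rosa26 tumours. The first 4 translocation tumours lay within or just above the Rosa26 range, and translocation tumour 5 stood 21 times above the next tumour. Its kinase Cdk1 (chr10:69335146-69352938) had 10.2, 12.3, 26.5, 14.5 and 225 CPM in the translocation tumours, against 8.22 to 18 CPM, median 11.6, in the Rosa26 tumours. Here translocation tumour 3 was second and also lay above all Rosa26 tumours.

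Top2a, the topoisomerase that untangles sister chromatids (chr11:98992943-99024189), had the highest level per length of the mitosis genes, a mean of 12.6 CPM per kb over the tumours. It had 22.1, 48.2, 81.5, 57.7 and 598 CPM in the translocation tumours, against 49.2 to 99.5 CPM, median 77.9, in the Rosa26 tumours. Translocation tumours 1 and 2 lay below the Rosa26 range and translocation tumour 5 was 6.01 times above the next tumour. Cdc20, which activates the anaphase-promoting complex (chr4:118432901-118437352), had 5.95, 14.9, 15.1, 8.97 and 145 CPM in the translocation tumours, against 7.28 to 15.1 CPM, median 10.9, in the Rosa26 tumours. Apart from translocation tumour 5, the groups overlapped for both genes.

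A further 3 genes were singled out after their values were seen, because the other 4 translocation tumours did not overlap the Rosa26 tumours. Mki67, whose protein coats mitotic chromosomes and is read in pathology as a marker of cycling cells, had 42.3, 25, 55.9, 30.7 and 211 CPM in the translocation tumours, against 58.6 to 145 CPM, median 76.1, in the Rosa26 tumours. The kinetochore motor gene Cenpe had 6.24, 8.76, 12.1, 12.5 and 97.5 CPM in the translocation tumours, against 15 to 29.2 CPM, median 22.5. The kinetochore protein gene Cenpf had 15.4, 18.8, 23.9, 18.3 and 153 CPM in the translocation tumours, against 27.4 to 50.4 CPM, median 33.4. For all 3 genes translocation tumours 1 to 4 lay below every Rosa26 tumour and translocation tumour 5 lay above every one. Such a gap without translocation tumour 5 was seen for 3 of the 40 genes, against 7.61% of 17433 genes. The 40 genes thus had about the same share of such gaps as all genes. With translocation tumour 5 included, 0 of the 40 had groups that did not overlap, against 5.32% of all genes.

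The gap between translocation tumour 5 and the rest was not even across mitosis genes. Its level over the median of the other tumours was 17.8 times for Cdk1, 16.7 for the checkpoint kinase gene Bub1b, 13.9 for the centromeric histone gene Cenpa and 13.8 for the spindle kinase gene Aurka. It was 3.48 times for Mki67, 3.89 for the cytokinesis motor gene Kif23, 4.05 for the transcription factor gene Foxm1 and 4.35 for the spindle midzone gene Prc1. Behind translocation tumour 5, Rosa26 tumour 5 was second for 13 of the 24 mitosis genes and translocation tumour 3 for 5. The lowest tumour was translocation tumour 1 for 9, translocation tumour 2 for 7 and another tumour for the rest.

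Among the licensing and fork genes, the 6 MCM genes encode the subunits of 1 ring and were compared per length. Their medians over the tumours were 2.45 CPM per kb for Mcm2, 5.58 for Mcm3, 6.24 for Mcm4, 4.46 for Mcm5, 8.51 for Mcm6 and 6.99 for Mcm7. Mcm6 (ENSMUSG00000026355, chr1:128331590-128359664) had 21.8, 56.5, 47.1, 30.1 and 176 CPM in the translocation tumours, against 22.5 to 50.4 CPM, median 39.2, in the Rosa26 tumours. Translocation tumour 2 was second for Mcm6, and also for Mcm2, with 39.4 CPM of Mcm2. The mean of log2 CPM over the 6 MCM genes was 3.73, 4.59, 4.81, 4.24 and 7.09 in the translocation tumours and 4.19 to 4.91 in the Rosa26 tumours. All but translocation tumours 1 and 5 therefore lay within the Rosa26 range.

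Pcna, the sliding clamp gene (chr2:132249162-132253314), had the highest level per length of all 40 genes, a mean of 28.2 CPM per kb over the tumours. It had 38.3, 46.8, 59.6, 56.5 and 294 CPM in the translocation tumours, against 10.8 to 60.7 CPM, median 41.6, in the Rosa26 tumours. The lowest value was that of Rosa26 tumour 4, a library with a high ribosomal share, and whether that share bears on it was not tested. GENCODE names a pair of Pcna pseudogenes, so its reads may be split. The GINS subunit genes differed from each other. Gins1 had 1.25, 1.31, 3.29, 1.87 and 36 CPM in the translocation tumours, against 0.7 to 2.77 CPM, median 1.8, in the Rosa26 tumours, so that translocation tumour 5 was 10.9 times above the next tumour.

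Gins2 (ENSMUSG00000031821, chr8:120578633-120589304) had 5.57, 4.82, 11.2, 10.7 and 20.9 CPM in the translocation tumours, against 3.14 to 6.31 CPM, median 4.41, in the Rosa26 tumours. Translocation tumours 3, 4 and 5 lay above all Rosa26 tumours and translocation tumours 1 and 2 lay within their range. Of its annotated exon length, 67.3% overlaps exons of Gse1 on the other strand, and no source used here gives the strand setting of the counting. Its reads may in part be those of Gse1. The licensing factor genes Cdc6 and Cdt1 were 4.83 and 6.39 times higher in translocation tumour 5 than the median of the other tumours. For both genes Rosa26 tumour 4 was second.

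In the nucleotide group, Rrm1, the large subunit of ribonucleotide reductase (chr7:102441695-102469771), had 32.3, 56.5, 74.8, 82.9 and 331 CPM in the translocation tumours, against 42.9 to 60.5 CPM, median 48.8, in the Rosa26 tumours. Its small subunit gene Rrm2 (chr12:24708241-24714146) had 15.6, 20.6, 32.3, 54.3 and 184 CPM in the translocation tumours, against 22.2 to 35.9 CPM, median 31.8, in the Rosa26 tumours. Both were above the Rosa26 range in translocation tumours 4 and 5 and below it in translocation tumour 1, while translocation tumour 3 was above it for Rrm1 alone and translocation tumour 2 below it for Rrm2 alone. Tyms, thymidylate synthase, was 6.48 times higher in translocation tumour 5 than the median of the other tumours.

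The E-type cyclins start S phase. Ccne2 (ENSMUSG00000028212, chr4:11191351-11204779) had 14.2, 11.4, 26, 20.8 and 150 CPM in the translocation tumours, against 2.1 to 14.3 CPM, median 10.4, in the Rosa26 tumours. The 2.1 CPM was that of Rosa26 tumour 4. Ccne1 (chr7:38097984-38107534) was low in all tumours, with 1.25, 2.19, 2.84, 2.9 and 11.2 CPM in the translocation tumours, against 0.919 to 6.12 CPM, median 2.02, in the Rosa26 tumours. Rosa26 tumour 4 was the highest Rosa26 tumour for Ccne1 and the lowest tumour for Ccne2.

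The licensing and fork genes set against mitosis placed the first 4 translocation tumours narrowly above the Rosa26 tumours. Translocation tumour 5 lay on the other side. The mean of log2 CPM over the 24 mitosis genes was 2.80, 2.96, 3.76, 3.26 and 6.72 in the translocation tumours, 3.76, 3.65, 3.66, 3.57, 4.08 and 3.15 in the Rosa26 tumours, and 0.73 in muscle. Over the 11 licensing genes it was 3.08, 3.77, 4.09, 3.53 and 6.32 in the translocation tumours, 3.64, 3.79, 3.64, 3.39, 3.95 and 3.34 in the Rosa26 tumours, and 1.97 in muscle. The licensing mean minus the mitosis mean was 0.28, 0.81, 0.33, 0.27 and −0.41 in the translocation tumours and −0.12, 0.14, −0.03, −0.18, −0.13 and 0.19 in the Rosa26 tumours. Translocation tumours 1 to 4 were thus above every Rosa26 tumour in this difference, and translocation tumour 5 was the lowest of the 11. Muscle stood highest, at 1.23. The separation depended on which genes were averaged. With the mean of the 6 MCM genes instead, Rosa26 tumour 2 (4.78 against a mitosis mean of 3.65) lay above translocation tumours 1, 3 and 4. Translocation tumour 1, for one, had 3.73 against 2.80. The 11 licensing genes include Gins2, whose reads may in part be those of Gse1.

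The group means of the licensing mean minus the mitosis mean were 0.26 ± 0.44 in the translocation tumours and −0.02 ± 0.15 in the Rosa26 tumours (SD, n = 5 and n = 6). The gap of 0.28 between them was smaller than the spread among translocation tumours, and it was 0.44 without translocation tumour 5 and 0.14 without translocation tumour 2, the shallowest library. No p was computed, since the genes were chosen with earlier results known. Without translocation tumour 5, the mitosis means were 3.20 ± 0.42 in the translocation tumours and 3.65 ± 0.30 in the Rosa26 tumours. The licensing means were 3.62 ± 0.42 and 3.63 ± 0.23 for the same groups (SD, n = 4 and n = 6).

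**Figure D2:**
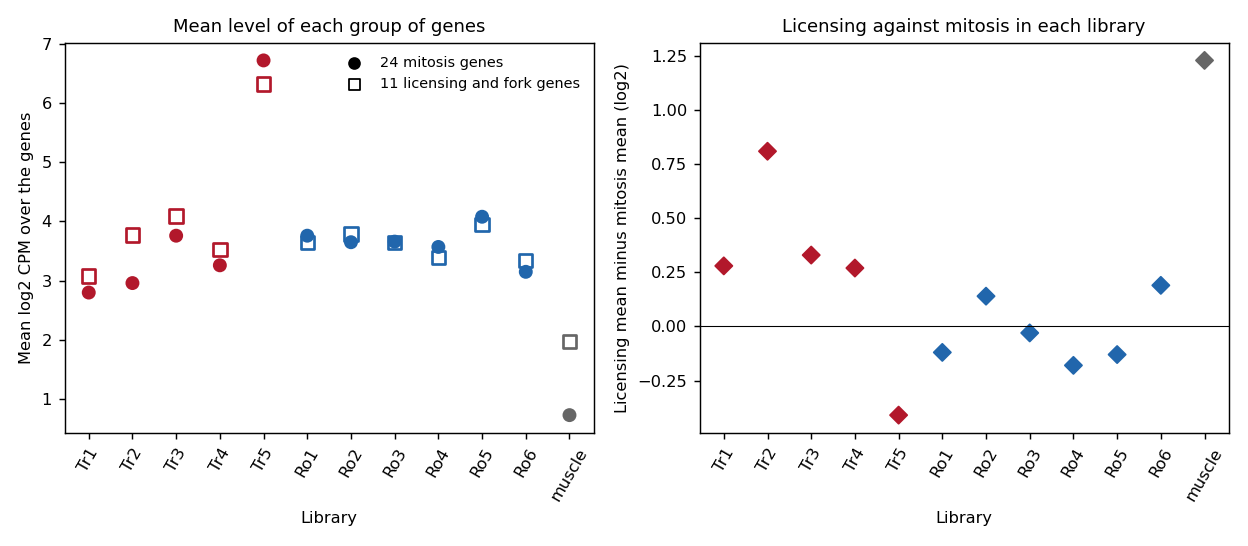
Left, mean log2 CPM over the 24 mitosis genes (filled circles) and the 11 licensing and fork genes (open squares) in each library. Right, the licensing mean minus the mitosis mean, where translocation tumours 1 to 4 (red, 0.27 to 0.81) lie above the Rosa26 tumours (blue, −0.18 to 0.19), translocation tumour 5 lies lowest at −0.41 and muscle (grey) highest at 1.23.

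Between the genotypes, none of the 40 genes passed the test. In edgeR's quasi-likelihood fit of the 11 tumours, 0 of 40 had a Benjamini-Hochberg adjusted p under 0.05, against 2.70% of 17021 genes (460, of which 194 were higher in translocation tumours). At an unadjusted p under 0.05, 17 of the 40 were higher in translocation tumours and 0 lower, against 14.3% of all genes that were higher at that threshold. The DESeq2 Wald test called 2 of the 18 members that it gave an adjusted p, against 11.6% of all genes, and these were Ccne2 (DESeq2 adjusted p = 0.0145) and Gins2 (DESeq2 adjusted p = 0.0268), both higher. DESeq2 gave no p for the other 22, which its Cook's distance filter had set aside for an extreme count. The fitted log2 fold change, translocation over Rosa26, was above 0 for 39 of 40, against 53.2% of all genes.

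The smallest p-values lay in different groups of genes. The smallest was that of Ccne2, whose fitted log2 fold change was 2.32 (SE 0.69, edgeR adjusted p = 0.0772), followed by Gins2 at 1.25 (SE 0.40, adjusted p = 0.0909). Ccnb1 had the largest fold change, 2.82 (SE 0.95, adjusted p = 0.102). In the nucleotide group Rrm1 had 1.24 (SE 0.49, adjusted p = 0.148) and Rrm2 1.03 (SE 0.54, adjusted p = 0.262). For the genes with high levels per length, the fold changes were 1.19 for Top2a, 1.84 for Cdc20, 1.30 for Pcna and 0.81 for Mcm6, with edgeR adjusted p-values of 0.316, 0.151, 0.185 and 0.31. Ccne1 had 0.66 (SE 0.63, adjusted p = 0.55). The median log2 fold change was 1.34 over the mitosis genes, 1.01 over the licensing genes, 1.22 over the nucleotide genes and 1.49 over the cyclins, against 0.07 over all genes.

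These positive values rested on translocation tumour 5. Without it, again 0 of 40 genes passed in edgeR, against 4.27% of 17433 genes, and the median turned to −0.39 over the mitosis genes and 0.03 over the licensing genes. It was 0.22 over the nucleotide genes and 0.42 over the cyclins. Of the mitosis genes, 18 of 24 then had a negative log2 fold change, as did 5 of 11 licensing genes and 0 of 3 nucleotide genes, against 50.2% of all genes. At an unadjusted p under 0.05, 6 of the 40 genes differed, against 23.2% of all genes. Of these, 4 mitosis genes were lower, and Gins2 and Ccne2 were higher.

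Those 4 genes, chosen after their values were seen, were Mki67, Cenpe, Cenpf and Foxm1, the factor that drives transcription of G2 and M genes. Their log2 fold changes without translocation tumour 5 were −1.16 (SE 0.33) for Mki67, −1.09 (SE 0.28) for Cenpe, −0.85 (SE 0.22) for Cenpf and −0.74 (SE 0.31) for Foxm1. Their edgeR adjusted p-values were 0.0669, 0.0518, 0.0551 and 0.176. Gins2 had 0.85 (SE 0.33, adjusted p = 0.158) and Ccne2 1.02 (SE 0.42, adjusted p = 0.18) in the same fit. Of the other members given with a fold change above, Top2a had −0.45 and Ccne1 −0.18, both on the other side of 0 than with all tumours. Ccnb1 had 0.11, Cdc20 0.06, Mcm6 0.03, Pcna 0.31, Rrm1 0.33 and Rrm2 0.03 without translocation tumour 5.

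**Figure D3:**
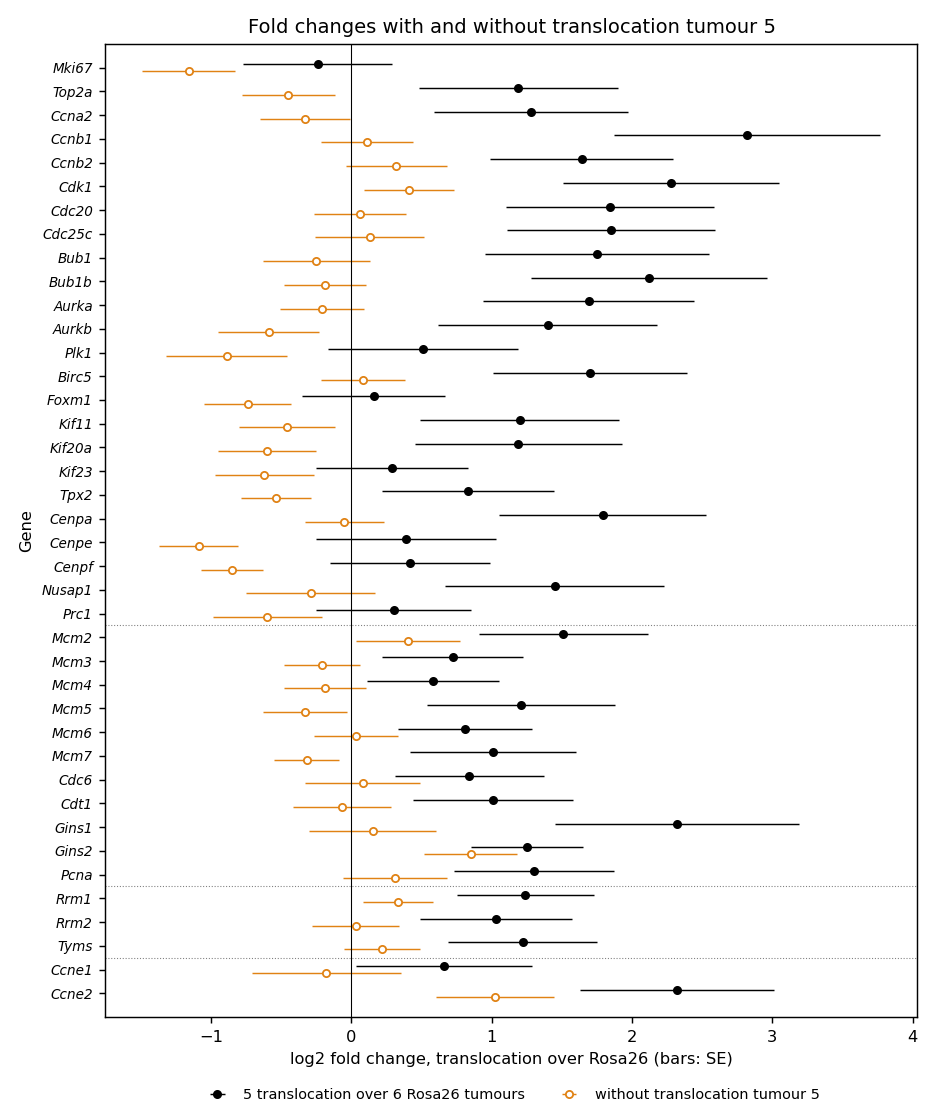
Log2 fold change, translocation over Rosa26, of each of the 40 genes with its standard error, from edgeR fits of all 11 tumours (filled black) and without translocation tumour 5 (open orange). With all tumours 39 of 40 values lie right of 0, and without translocation tumour 5 the medians are −0.39 for the mitosis genes at the top and 0.03 for the licensing genes below them.

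Other genes of the same pathways were read from 3 lists. Of 40 further replication genes, 1 rose in the translocation tumours and 0 fell in edgeR, against 2.70% of all genes called. Their median log2 fold change was 1.08 with all tumours and 0.25 without translocation tumour 5. At an unadjusted p under 0.05, 19 were higher, against 14.3% of all genes, and 10 differed without translocation tumour 5, of which 7 were higher, against 23.2% of all genes. DESeq2 called 3 of the 27 to which it gave an adjusted p, against 11.6% of all genes. Rpa3, the smallest subunit of the protein that coats single-stranded DNA, had 20.9, 15.3, 11.8, 19.8 and 79.7 CPM in the translocation tumours, against 2.45 to 12.2 CPM, median 4.67, in the Rosa26 tumours. It was the gene that rose, by 2.33 (SE 0.55, adjusted p = 0.0481), in 4 of 5 translocation tumours above the whole Rosa26 range. Its adjusted p was 0.0559, no longer under 0.05, without translocation tumour 5. It was also above 0.05, at 0.0514 to 0.127, without translocation tumour 1 or 4 or without Rosa26 tumour 1, 3, 4, 5 or 6.

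Gins4, another GINS subunit gene, had 27.2, 25.8, 23.7, 25 and 82.4 CPM in the translocation tumours, against 12.4 to 18 CPM, median 14.4, in the Rosa26 tumours. Its log2 fold change was 1.38 (SE 0.35, adjusted p = 0.054) with all tumours and 0.84 (SE 0.18, adjusted p = 0.0321) without translocation tumour 5. Gmnn, geminin, which holds back CDT1 after S phase begins, had 8.73, 9.19, 10.6, 9.9 and 69.8 CPM in the translocation tumours, against 3.03 to 8.68 CPM, median 3.61 (log2 fold change 2.30, SE 0.61, adjusted p = 0.0615). Every translocation tumour was above every Rosa26 tumour for Gins4, Gmnn and the primase gene Prim2, which makes 3 of 40 on this list, against 5.32% of all genes.

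Of 48 further mitosis genes, 0 passed in edgeR, against 2.70% of all genes, and DESeq2 called 2 of the 26 to which it gave an adjusted p, against 11.6%. At an unadjusted p under 0.05, 15 were higher, against 14.3% of all genes, and 4 differed without translocation tumour 5, of which 1 was higher, against 23.2% of all genes. The median log2 fold change was 1.16 with all tumours and −0.16 without translocation tumour 5. The spindle checkpoint gene Mad2l1 had 14.7, 25.8, 94.9, 27.3 and 190 CPM in the translocation tumours, against 15.1 to 24.3 CPM, median 19.1, in the Rosa26 tumours (log2 fold change 1.90, adjusted p = 0.0783). Spc25, a kinetochore subunit gene, had 5.28, 7.88, 13.3, 7.41 and 145 CPM in the translocation tumours, against 5.06 to 8.84 CPM, median 7.17, in the Rosa26 tumours (2.42, adjusted p = 0.1). Cks2, which encodes a small partner of the cyclin-dependent kinases, had 3.74, 3.06, 3.13, 2.49 and 41.6 CPM in the translocation tumours, against 1.57 to 3.81 CPM, median 2.02 (2.27, adjusted p = 0.103). Pttg1, securin, had 10.7, 17.1, 12.2, 8.08 and 53.8 CPM in the translocation tumours, against 5.88 to 10.6 CPM, median 8.02 (1.38, adjusted p = 0.106). Translocation tumour 5 was the highest tumour for 39 of the 40 further replication genes and 47 of the 48 further mitosis genes, against 27.8% of all genes.

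Among 25 cell cycle regulators, 0 passed in edgeR, against 2.70% of all genes, and 5 were higher at an unadjusted p under 0.05, against 14.3%. DESeq2 called 1 of the 24 to which it gave an adjusted p, against 11.6%, and translocation tumour 5 was highest for 11 of the 25, against 27.8%. Their median log2 fold change was 0.51 with all tumours and 0.13 without translocation tumour 5. Cdkn1c, an inhibitor of cyclin-dependent kinases, had 18.5, 11.8, 0.974, 14.4 and 38.7 CPM in the translocation tumours, against 1.38 to 4.28 CPM, median 2.96, in the Rosa26 tumours. All translocation tumours but the third lay above the Rosa26 range (log2 fold change 2.57, SE 0.65, adjusted p = 0.0549). Rbbp4, a histone-binding subunit gene of the DREAM complex, had 153, 200, 226, 222 and 604 CPM in the translocation tumours, against 70.3 to 224 CPM, median 126 (1.13, adjusted p = 0.114). Wee1, the kinase that holds CDK1 inactive, had 12.3, 10.1, 30.4, 10.5 and 16.3 CPM in the translocation tumours, against 5.68 to 12.2 CPM, median 8.98 (0.88, adjusted p = 0.153). Lin54, the DREAM subunit that binds the CHR, had 13.5, 14.9, 20.8, 18.9 and 42.5 CPM in the translocation tumours, against 8.57 to 19 CPM, median 12.7 (0.78, adjusted p = 0.173).

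Against skeletal muscle, the mitosis genes had a larger median fold change than the replication genes, a difference that was not tested. The median log2 fold change, tumours over muscle, was 3.80 over the mitosis genes, 2.06 over the licensing genes, 1.10 over the nucleotide genes and 1.26 over the cyclins, against 0.70 over all 22184 genes tested, a value that DESeq2's size factors lowered to 0.57. All 40 values of the TMM fit were positive. Translocation tumour 5 raised these medians. Without it they were 2.89, 1.59, 0.64 and 0.72 in the same order, against 0.64 over all genes tested. Every tumour was above the muscle library for 31 of 40, against 19.1% of all genes, and these were 22 of 24 mitosis genes, 8 of 11 licensing genes, 1 of 3 nucleotide genes and 0 of 2 cyclins. The exceptions for mitosis were Bub1b and Nusap1, each with 10 of 11 tumours above muscle.

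In the edgeR fit of all 12 libraries, 3 of 40 rose by a log2 fold change of at least 1 with an adjusted p under 0.05, against 5.25% of all genes. These were Gins2 (3.83, SE 1.01, adjusted p = 0.0225), Tyms (4.46, SE 1.34, adjusted p = 0.039) and Prc1 (4.67, SE 1.42, adjusted p = 0.0407). Without translocation tumour 5 the count was 27 of 40, against 11.7% of all genes, made up of 20 mitosis genes, 6 licensing genes and 1 nucleotide gene. It was 1 without Rosa26 tumour 2, 3, 5 or 6, against 762 to 866 higher among all 22001 to 22166 genes tested. The DESeq2 Wald test called 12 of the 40, against 2865 higher among 36613 genes with any count. The fit took the spread of the 1 muscle library to be that of the tumours, and the 40 genes had 4 to 365 counts each in it.

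The largest fold changes were those of Bub1, Prc1 and Birc5. The checkpoint kinase gene Bub1 had 2.97, 4.38, 9.38, 6.48 and 92.2 CPM in the translocation tumours and 3.67 to 9.12 CPM, median 7.91, in the Rosa26 tumours, against 0.391 CPM (4 counts) in muscle. Its log2 fold change was 5.01 (SE 2.12, adjusted p = 0.126) and, without translocation tumour 5, 4.01 (SE 0.94, adjusted p = 0.00867). Birc5, survivin, had 5.57, 5.25, 11.9, 7.67 and 86.2 CPM in the translocation tumours and 5.55 to 8.76 CPM, median 8.06, in the Rosa26 tumours, against 0.488 CPM (5 counts) in muscle. Its log2 fold change was 4.74 (SE 1.79, adjusted p = 0.0914) and, without translocation tumour 5, 3.92 (SE 0.74, adjusted p = 0.00283). Prc1 had 8.83, 12.3, 29.6, 13.9 and 85.2 CPM in the translocation tumours and 15.2 to 45.2 CPM, median 23, in the Rosa26 tumours, against 1.07 CPM (11 counts) in muscle.

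The smallest fold changes were those of Rrm2, Ccne2 and Pcna, none of which passed in edgeR with or without translocation tumour 5. Muscle had 27.1 CPM of Rrm2 (278 counts), above translocation tumours 1 and 2 and within the Rosa26 range, and the fitted log2 fold change, tumours over muscle, was 0.68 (adjusted p = 0.645). It had 10.8 CPM of Ccne2 (111 counts), above the Rosa26 median of 10.4 CPM, and its log2 value was 0.90 (SE 1.26, adjusted p = 0.63). It had 30.2 CPM of Pcna (309 counts), above Rosa26 tumour 4 alone, and its log2 value was 1.09 (SE 1.09, adjusted p = 0.495). Per length, muscle had 12.6 CPM per kb of Pcna and 9.8 of Rrm2, but at most 1.3 of any mitosis gene, that of Bub1b.

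**Figure D4:**
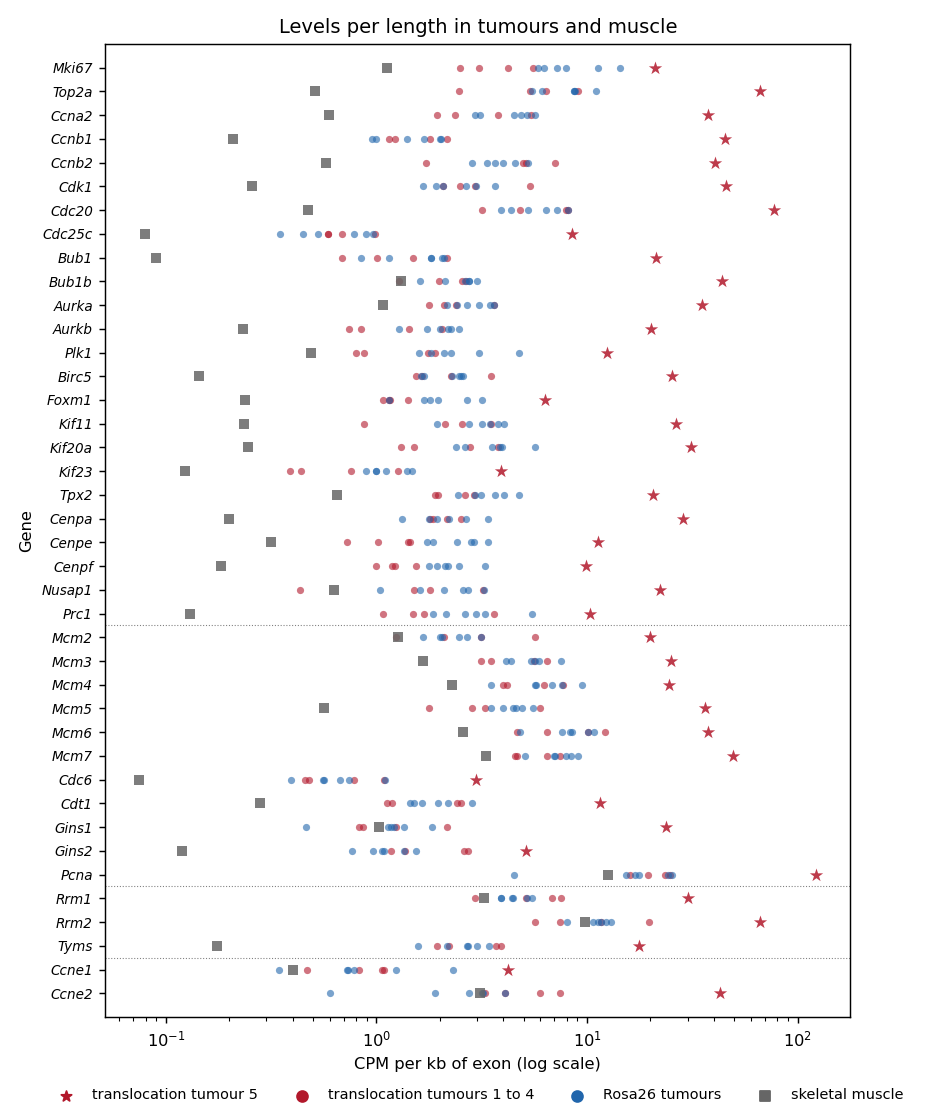
Level of each of the 40 genes in CPM per kb of exon on a log scale, in translocation tumour 5 (stars), translocation tumours 1 to 4 (red circles), the Rosa26 tumours (blue circles) and muscle (grey squares). Stars lie right of all other tumours for all 40 genes, and the muscle square lies left of every tumour for 22 of 24 mitosis genes but among the tumours for Rrm2 and Ccne2.

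The 40 genes lie on 16 chromosomes. For 12 of the 40, some exon bases overlap those of another annotated gene, and for 6 of them the overlap covers more than 10% of the exon length. Besides Gins2, these were Kif20a (29.3%, with Cdc23), Ccne2 (17.4%, with Ints8), Cdc25c (12.7%, with Gm3550), Ccna2 (12.5%, with Exosc9) and Prc1 (11.1%, with Rccd1), in each case on the opposite strand. Annotated processed pseudogenes named after Ccnb1, Ccnb2, Pcna and Tyms may hold some reads of these genes.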

How the data were processed

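RNA of 11 mouse tumours and 1 skeletal muscle was sequenced after ribosomal RNA depletion with a stranded Illumina kit, per the labels' protocols. The authors deposited raw read counts for each Ensembl gene and sample, in whole numbers. Named in the submitters' processing notes are cutadapt, STAR 2.7.5a, featureCounts, RSEM, DESeq2 and mm10, without role or order. No source used here gives the annotation release, the strand setting or the handling of multi-mapping reads, and overlapping genes and pseudogenes may share reads.

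Symbols, positions and exon lengths were those of GENCODE M21 (mm10), and promoters from RefSeq on GRCm38.p6. Groups followed the genotype labels. The labels do not state separate animals, so p-values measure only the spread between these samples, which may be technical. No pair of tumour libraries, of 55, was alike within sampling noise, the closest (Rosa26 tumours 3 and 6) with a median chi-square per gene of 5.38 against 0.455.

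Genotypes were compared with edgeR 4.0.16 (R 4.3.3) on the 11 tumours. The fit used TMM factors, filterByExpr with a minimum count of 10, robust quasi-likelihood tests and Benjamini-Hochberg adjustment over all genes tested at 0.05. All 40 genes passed the filter in both fits. The contrast of tumours with muscle came from a fit of 12 libraries, called with an added log2 fold change of at least 1. Printed CPM use TMM over 12 libraries, which shifts log2 translocation over Rosa26 by −0.0427 from the 11-library scale. Scores are means of log2 CPM with a prior count of 2. Intervals of shares are 95% Wilson intervals, and they and the floor of 3 counts cover counting error only. The fits were tested on simulated counts.

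The members and all lists were chosen with earlier results of these data known. Values in every sample were given for members called between genotypes, for the member of each group with the smallest p and the 2 highest per kb, for up to 4 genes of each further list by smallest adjusted p, and for the 3 members with the largest and smallest change against muscle. Of the further lists, 1 gene chosen this way is not reported here. Others were named after their values were seen. Alternatives were DESeq2 1.42.0, its size factors, no filter, 1 CPM in 5 tumours, a prior count of 0.5, muscle in the fit, sums of libraries with like titles, and libraries left out.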

Additional observations from a re-analysis of the deposited data

Results flagged for a closer look

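Within the 5 translocation tumours, translocation tumour 5 lay far from the others in log2 CPM for 14 of the 40 genes and for the mean of the mitosis genes. The gap to the next tumour, as a share of the group's range, was 0.83 for Ccnb1, 0.71 for Cdc20, 0.81 for Cdc25c, 0.79 for Bub1b, 0.76 for Aurka, 0.71 for Birc5, 0.85 for Foxm1, 0.82 for Tpx2 and 0.88 for Cenpa. It was 0.75 for Cenpe, 0.81 for Cenpf, 0.79 for Mcm7, 0.72 for Gins1, 0.78 for Pcna and 0.76 for the mean log2 CPM of the mitosis genes, against a critical value of 0.71 for 5 samples. Within the 6 Rosa26 tumours, Rosa26 tumour 4 lay far below the others, with a share of 0.64 for Gins1 and 0.71 for Pcna, against a critical value of 0.625 for 6 samples. Chance flags about 1 in 20 such groups, and 90 were examined. The genes are not independent of each other, since they share their libraries. Both libraries are described beside the levels above, and no cause was tested.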

How the results depend on the processing

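The call of 0 of 40 genes between genotypes held in edgeR under all alternatives run, with each tumour left out in turn included, and DESeq2 called 2. The number of all genes called, 460, was 91 with Rosa26 tumours 5 and 6 summed, 815 with translocation tumours 2 and 5 summed, 2514 in DESeq2, and 63 to 744 with 1 tumour left out. Leaving out translocation tumour 1 gave 112 and translocation tumour 5 gave 744, while Rosa26 tumours 3, 4, 5 and 6 gave 63, 262, 123 and 75. The further replication, mitosis and regulator genes, 1 of which was called, gave 0 with no filter, 0 with Rosa26 tumours 5 and 6 summed, 3 with translocation tumours 2 and 5 summed, 0 with muscle kept in the fit, 6 in DESeq2, and 0 to 2 with 1 tumour left out. Rpa3, the gene called, had an adjusted p of 0.002 to 0.127 over all alternatives.

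The median log2 fold change of the mitosis genes was −0.39 with translocation tumours 2 and 5 and Rosa26 tumour 4 left out together, and −0.39 to 1.60 with 1 tumour left out. That of the licensing genes was −0.11 with those 3 left out and 0.03 to 1.25 with 1 left out. With those 3 left out, single genes turned to −0.48 for Top2a, −0.08 for Cdc20, −0.24 for Mcm6, −0.57 for Foxm1, −1.01 for Cenpe and −0.89 for Cenpf. With 1 tumour left out the range was −0.45 to 1.46 for Top2a, −0.18 to 1.09 for Ccne1, −0.74 to 0.34 for Foxm1, −1.09 to 0.63 for Cenpe and −0.85 to 0.63 for Cenpf. In each the lowest value was without translocation tumour 5. The licensing minus mitosis difference between genotypes stayed above 0 in all alternatives, at 0.14 to 0.44.

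Against muscle, all genes called numbered 3686, and 7037 with those 3 tumours left out, 5447 in DESeq2 and 2838 to 5987 with 1 left out. Of the 40 genes, 3 were called, 28 with those 3 left out, 12 in DESeq2, and 1 to 27 with 1 left out. The cause of these changes was not tested. No paired analysis was possible because replicate numbers follow only the order of the samples. Depth limits translocation tumour 2 and Rosa26 tumour 4 most, and the 1 muscle library gives no spread of its own.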
